A study of Mus musculus with 2 samples.

Results

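The windows described here are 37814 stretches of 1 kb in the autosomal genome of E14 mouse embryonic stem cells, chosen because symmetric methylation (MM, 5-methylcytosine on both strands of a CpG) made up at least 80% of all CpG-state calls in replicate 1. They were taken from 1222851 autosomal windows with at least 5 covered CpG sites in that replicate, so the rule picked 3.09% of them. E14 is an established mESC line, grown here in serum and LIF, the cytokine that keeps mESCs self-renewing, and no genotype or treatment was varied. Genomic DNA of 2 passages gave replicate 1 and replicate 2. SCoTCH-seq tethers the strands of a DNA fragment and calls C, mC or hmC on each strand, so that a CpG has 9 states, with the letter of the plus strand first. MC and CM denote hemimethylation, HC and CH pair hmC with C, HM and MH pair hmC with mC, and HH carries hmC on both strands. The percentage of fetal bovine serum differs between the sample labels and the published methods, and which applies is not known. The methods call the replicates independent, and both are of 1 line and 1 condition.

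CpG methylation in mammals is copied after replication by Dnmt1, which Uhrf1 guides to CpGs that carry mC on the parental strand only. Tet enzymes oxidize mC to hmC, and in the absence of maintenance a methylated CpG passes through hemimethylation before it is lost. Mouse embryonic stem cells in serum are known for high methylation across intergenic DNA and gene bodies, with CpG islands at promoters largely unmethylated.

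The rule used the MM level of replicate 1, so levels there are descriptions. In replicate 1 the windows held 290052 CpG sites with 2836061 calls, of which 82.9% were MM, 8.26% MC/CM, 3.90% CC, 2.92% HM/MH, 1.71% HC/CH and 0.278% HH. The median MM level was 82.4%, 1304 windows had an MM level of 90% or more and 15 had 100%. Windows just inside and just outside the threshold had close levels in replicate 2: the 10018 windows from 80 to under 81% had an MM level of 76.3% there, and the 9586 windows from 79 to under 80% had 75.9%. Chosen windows had a median of 7 covered sites and 67 calls in replicate 1, against 8 sites and 82 calls for the other windows, and the part of this lower depth in the choice was not tested.

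Replicate 2 was shallower, with a mean depth of 6.37 calls per autosomal CpG site against 10.6 in replicate 1. It covered 31904 of the 37814 windows with at least 1 site, 5479 of them with at least 5, and left 5910 without a site. Its 93460 sites in the windows carried 586288 calls. Its advantage was the lower miscall rate at the MM sites of duplexes with known states, where hmC calls of the HM/MH kind made up 0.467% against 4.51% in replicate 1. Miscalls as MC/CM were 2.2 and 2.12% at these sites.

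To show what such windows look like, 5 stretches of 300 bases are printed, each the stretch with the most CpGs of a named window or run, taken from the plus strand of GRCm38.p6. They were picked after their coverage and levels were seen, among stretches with most of their CpGs read in both replicates and from different annotations, and others would have met this too, so they are examples. CpGs are in capitals. The Ubqln5 stretch (chr7:104129000-104129299) lies within 1 kb of the gene's annotated start, at 104129826 on the minus strand, but does not hold it. Ubqln5 is a ubiquilin-family gene, and the midpoint of its window also lies in Olfr643. The Uggt1 stretch (chr1:36192186-36192485) lies in a window whose midpoint is exonic. Uggt1 encodes a glucosyltransferase that checks glycoprotein folding. The stretch nearest to Vmn2r74 (chr7:86011674-86011973) is intergenic, as is the stretch in a run of windows near A030003K21Rik (chr1:82937092-82937391). The Stox2 stretch (chr8:47446554-47446853) lies by that gene's start.
Ubqln5: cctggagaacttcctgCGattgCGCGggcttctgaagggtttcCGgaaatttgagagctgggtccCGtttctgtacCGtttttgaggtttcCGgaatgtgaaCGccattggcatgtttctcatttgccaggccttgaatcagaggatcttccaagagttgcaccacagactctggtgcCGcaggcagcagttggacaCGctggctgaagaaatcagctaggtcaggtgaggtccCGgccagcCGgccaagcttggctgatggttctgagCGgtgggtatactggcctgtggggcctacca
Uggt1: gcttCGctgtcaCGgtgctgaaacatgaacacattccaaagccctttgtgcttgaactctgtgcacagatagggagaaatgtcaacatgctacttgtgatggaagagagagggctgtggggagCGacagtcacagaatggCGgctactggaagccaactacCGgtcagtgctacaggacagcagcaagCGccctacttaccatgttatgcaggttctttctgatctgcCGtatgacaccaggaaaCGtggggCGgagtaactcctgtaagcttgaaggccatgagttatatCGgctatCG
Intergenic, nearest to Vmn2r74: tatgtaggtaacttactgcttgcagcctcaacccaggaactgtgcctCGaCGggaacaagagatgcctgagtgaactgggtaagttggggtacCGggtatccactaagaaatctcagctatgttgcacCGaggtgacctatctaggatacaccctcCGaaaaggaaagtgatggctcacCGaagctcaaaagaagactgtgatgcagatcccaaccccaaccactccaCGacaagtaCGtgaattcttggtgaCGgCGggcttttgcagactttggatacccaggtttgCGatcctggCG
Intergenic, near A030003K21Rik: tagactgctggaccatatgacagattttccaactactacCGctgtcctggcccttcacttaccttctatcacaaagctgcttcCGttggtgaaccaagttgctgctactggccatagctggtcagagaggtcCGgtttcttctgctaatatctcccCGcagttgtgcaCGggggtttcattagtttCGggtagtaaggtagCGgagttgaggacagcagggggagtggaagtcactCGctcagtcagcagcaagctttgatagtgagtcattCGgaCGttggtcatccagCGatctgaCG
Stox2: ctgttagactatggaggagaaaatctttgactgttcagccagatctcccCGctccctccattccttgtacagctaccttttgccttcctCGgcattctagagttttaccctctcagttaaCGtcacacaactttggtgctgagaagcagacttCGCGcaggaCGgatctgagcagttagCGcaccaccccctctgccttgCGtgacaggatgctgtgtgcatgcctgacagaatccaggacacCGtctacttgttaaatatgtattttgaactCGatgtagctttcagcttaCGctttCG
In the Ubqln5 stretch, 13 of 13 CpGs were covered in replicate 1 and 11 in replicate 2, with MM at 82.9% of 105 calls and 82.5% of 80 calls. The stretch nearest to Vmn2r74 went from 89.7% of 156 calls to 69.2% of 78 calls, and the Stox2 stretch from 80.6% of 62 calls to 55% of 40 calls. HC/CH made up 17.5% of those 40 Stox2 calls (95% exact interval 7.34 to 32.8%). The Uggt1 stretch went from 82.0% of 128 calls to 86.8% of 76 calls, and the stretch near A030003K21Rik from 81.7% of 60 calls to 90.7% of 43 calls.

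In replicate 2, 77.2% of calls in the windows were MM (95% Clopper-Pearson interval 77.1 to 77.3%). MC/CM made up 14.3% (14.2 to 14.4%), CC 4.37% (4.31 to 4.42%), HC/CH 2.06% (2.02 to 2.09%), HM/MH 2.01% (1.98 to 2.05%) and HH 0.0573% (0.0513 to 0.0638%). These intervals cover counting error only, and they are narrow beside the SD of the replicates (n = 2), which was 4.07 percentage points for the MM level, 4.29 points for the MC/CM level and 0.644 points for the HM/MH level. The rule, applied in replicate 1, enters that SD. After correction with the call rates of the duplexes in replicate 2, MM was 79.3%, MC/CM 12.9%, HC/CH 1.95% and HM/MH 1.63%. The same correction left methylated lambda DNA, a control, at 4.48% MC/CM. In replicate 1, corrected with its own call rates, the windows had 89.7% MM and 6.74% MC/CM. In these windows, whose MM in replicate 1 chose them, the libraries differed more after correction than as called. Over all windows with 5 or more sites, MM as called was 55.1% in replicate 1 and 58.7% in replicate 2. After correction it was 59.5 and 60.3%, closer together. The label of fully methylated windows was not borne out in the second library: with 77.2% MM as called, more than 1 call in 5 was another state. The windows are named below by their rule, as the chosen windows.

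Methylated lambda DNA and the MM sites of the duplexes are controls in the same library. The duplex sites had 97.2% MM and 2.2% MC/CM in replicate 2. Lambda had 92.4% MM, 6.43% MC/CM, 0.717% CC, 0.340% HM/MH, 0.0863% HC/CH and 0.0351% HH over 279414 calls. The chosen windows were 15.2 percentage points below it in MM and 7.91 points above it in MC/CM. In replicate 1, lambda had 91.0% MM, 3.51% MC/CM and 0.338% CC, so replicate 2 read more MC/CM and CC on this control. There the chosen windows, whose MM the rule used, were 4.75 points above lambda in MC/CM. Their HC/CH level was 23.9 times and their HM/MH level 5.92 times that of lambda, whereas HH was 1.63 times, as read in replicate 2. In replicate 1, whose MM level chose the windows, HM/MH was 2.92% against 3.88% in lambda and HC/CH 1.71% against 0.153%. That HM/MH level was below the 4.51% miscalled as HM/MH at the MM sites of the duplexes there. It was corrected to 0, so it gives no level of HM/MH.

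**Figure D1:**
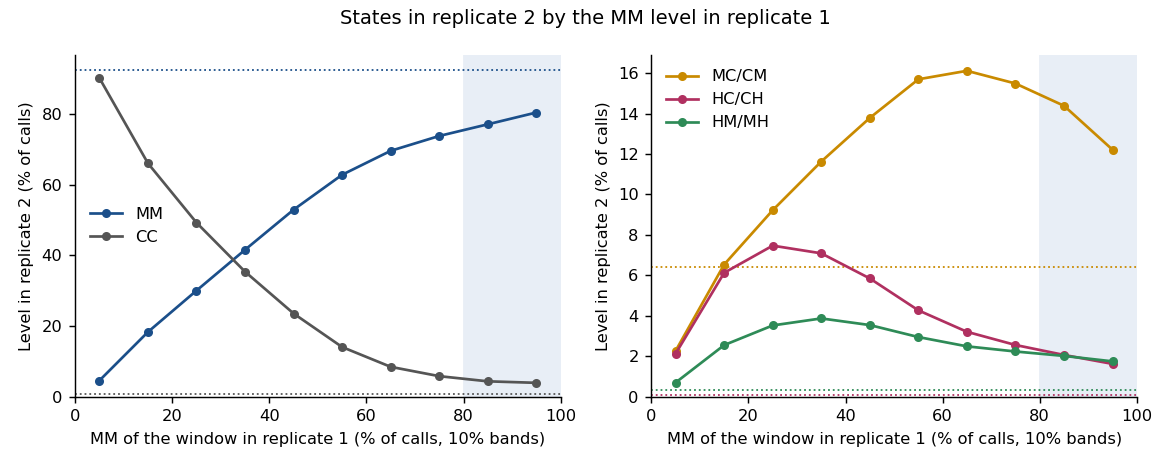
Levels of CpG states in replicate 2 (% of calls) for windows grouped by their MM level in replicate 1 (10% bands, shaded from 80%), with dotted lines at the level of lambda DNA for the state of the same colour. MM rose from 4.58% in the lowest band to 80.4% in the highest, MC/CM peaked at 16.1% in the 60 to 70% band, and HC/CH and HM/MH peaked at 7.47% and 3.87% in lower bands.

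Of the 5479 chosen windows with at least 5 sites in both replicates, 2523, or 46.0%, again had an MM level of at least 80% in replicate 2. The background over all 289515 windows with at least 5 sites in both was 12.8%, and 22.3% of the 134220 windows with an MM level of 60 to 80% in replicate 1 reached it. The median MM level in replicate 2 was 78.8%, with 5th and 95th percentiles of 61.3 and 92.6%. In the windows of 60 to 80% the median was 72.2%, with 53.1 and 87.5% as the same percentiles. Of the chosen windows 26 were under 50%, or 0.475%, against 28.0% of all the windows. Across the 5479 windows the order hardly carried over between the libraries, with a Spearman's rho of 0.10 for MM, 0.15 for CC, 0.11 for HC/CH and 0.05 for HM/MH. This is a description over windows that share 2 libraries and a narrow range of MM.

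**Figure D2:**
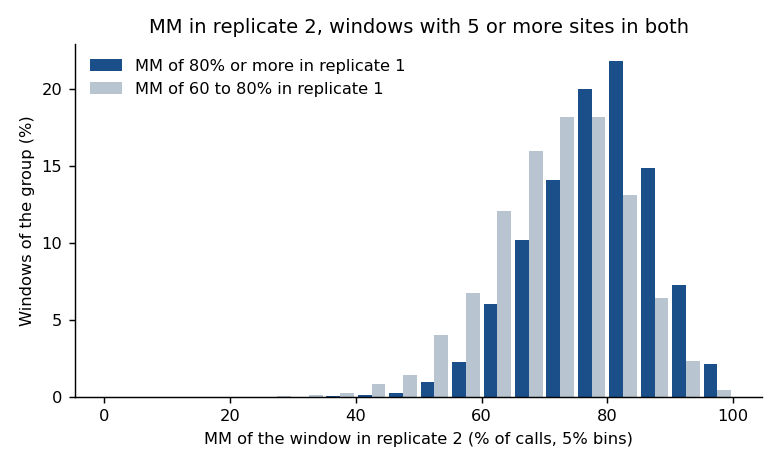
Share of windows (% of the group) by MM level in replicate 2 (% of calls, 5% bins), for windows with 5 or more sites in both replicates, with chosen windows in dark blue and windows of 60 to 80% MM in replicate 1 in grey. The groups overlap widely, with medians of 78.8 and 72.2%.

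The windows with an MM level of 60 to 80% in replicate 1, 629538 in number, were the nearest group below the threshold. Read in replicate 2, they had less MM than the chosen windows (71.1%) and more of each other state: 15.9% MC/CM, 7.52% CC, 2.98% HC/CH, 2.40% HM/MH and 0.104% HH. The chosen windows had 6.05 points more MM, and 1.55 points less MC/CM, 3.15 less CC, 0.918 less HC/CH and 0.387 less HM/MH, in the same direction on 19 of 19 autosomes. Each p-value, from an exact sign-flip permutation test over the autosomes (two-sided), was 3.81e-06, the smallest this test can give, and 5.8e-06 after Benjamini-Hochberg adjustment over 38 tests. Over the autosomes the SD of these differences was 0.369 points (MM), 0.257 (MC/CM), 0.111 (HC/CH) and 0.130 (HM/MH). On single autosomes, MC/CM was between 13.8 and 15% in the chosen windows and between 15.4 and 16.2% in the 60 to 80% windows, so the groups did not overlap. HC/CH (1.89 to 2.47% against 2.77 to 3.30%) and HM/MH (1.85 to 2.22% against 2.28 to 2.51%) did not overlap either. Autosomes are blocks of 1 library and not replicates. With sites of at least 10 calls only, HM/MH no longer passed (-0.259 points, adjusted p = 0.0708 by the exact permutation test, adjusted within that setting), nor did HH. With the rule applied in replicate 2 and levels read in replicate 1, the MC/CM difference was -0.137 points and that of HM/MH -0.161 points, both still past the threshold.

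**Figure D3:**
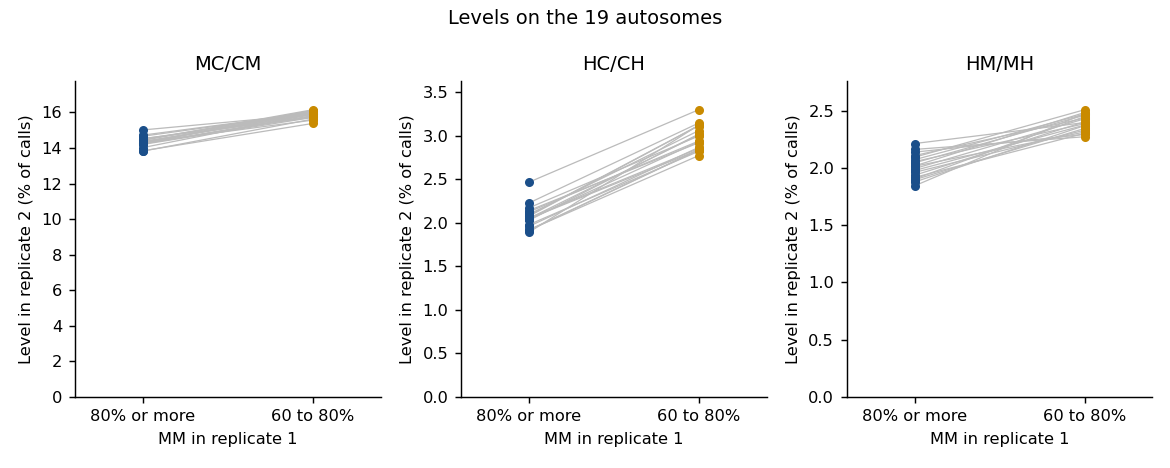
MC/CM, HC/CH and HM/MH levels in replicate 2 (% of calls) on each of the 19 autosomes, with a point per autosome and group and a line joining the groups of 1 autosome. The chosen windows lie below the windows of 60 to 80% MM on each autosome in all 3 panels.

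The calls that remained were also of another make-up. Of the calls other than MM, MC/CM made up 62.8% in the chosen windows and 55% in the 60 to 80% windows, while CC made up 19.1 against 26% and HC/CH 9.01 against 10.3%. HM/MH took 8.82 against 8.31% of them, higher in the chosen windows on 17 of 19 autosomes (adjusted p = 8.05e-05, exact sign-flip permutation test). The differences for MC/CM, CC and HC/CH ran in 1 direction on 19 of 19 autosomes (adjusted p = 5.8e-06, the same permutation test). With sites of at least 10 calls, the HC/CH share no longer passed (-0.817 points, 13 of 19 autosomes, adjusted p = 0.0755 within that setting, exact permutation test). The HC/CH level was 1.02 times that of HM/MH in the chosen windows, 1.24 times in the 60 to 80% windows and 1.51 times in all other windows with 5 or more sites, as called in replicate 2. After correction in that replicate the ratios were 1.2, 1.44 and 1.72, and as called in replicate 1, with its higher HM/MH miscall rate, they were 0.585, 0.811 and 1.07. The order did not hold after correction in replicate 1, where the 60 to 80% windows had a ratio of 3.16 and the other windows 2.55, and the chosen windows had none because their HM/MH level was corrected to 0. Against all other windows with 5 or more sites, CC in replicate 2 was 4.37 against 21.0% and HC/CH 2.06 against 4.0%. MC/CM differed from them by 0.391 points (14 of 19 autosomes, adjusted p = 0.004, exact permutation test), a difference that turned to -0.395 with an MM threshold of 85%.

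At single sites of the chosen windows in replicate 2, with a median depth of 6 calls, 25.9% of the 93460 sites were MM in every call. MC/CM was called at least once at 57.3% of sites, CC at 20.9%, HC/CH at 11.2%, HM/MH at 11% and HH at 0.336%. No MM call was made at 277 sites. MC/CM made up at least 50% of calls at 3.86% of sites. Such counts depend on the depth as well as on the level, and no count to be expected at this depth was computed. They therefore do not tell how the states are spread over sites.

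The chosen windows were shifted towards intergenic DNA. By the annotation of the window midpoint in GENCODE vM21, 56.8% were intergenic (outside protein-coding genes and over 1 kb from a protein-coding TSS), against 47.6% of the other windows with 5 or more sites. Promoters, within 1 kb of a protein-coding TSS on either side, held 0.428 against 2.58%. First introns held 13.6 against 18.8% and exons 3.71 against 5.33%, each lower on 19 of 19 autosomes as for promoters (adjusted p = 5.8e-06, exact sign-flip permutation test). Other introns held 25.4 and 25.7% (adjusted p = 0.895, exact permutation test), a difference of -0.270 points with an SD of 1.85 over the autosomes. The median distance from the nearest TSS was 88.4 against 48.2 kb. Against the 60 to 80% windows alone, a comparison added after the data were seen, the chosen windows were still more often intergenic (56.8 against 49.8%) and farther from a TSS (88.4 against 64.9 kb). By calls in replicate 2, promoters held 2900 of 586288 in the chosen windows and 77403 of 12160271 in the 60 to 80% windows. These are counts of calls and not of windows, so they are not set against the 2.58% of all other windows, which include windows of low MM. With the rule applied in replicate 2, where fewer windows had 5 sites, the differences from the other windows were 3.84 points for intergenic windows, 6.13 for other introns and -5.73 for promoters, and 25.6 kb for the distance from a TSS.

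They also lay in repeats more often. Bases that the reference masks as repeats made up 31.4% of the chosen windows and 23.2% of the others (higher on 19 of 19 autosomes, adjusted p = 5.8e-06, exact sign-flip permutation test). Among windows with 0 to 20% masked bases 2.54% were chosen, among those with 80 to 100% 11.8%. The excess was largest where CpGs were dense: with 20 or more reference CpGs, the chosen windows were 49.3% masked and the others 16.1%, while with 5 to 9 CpGs the values were 29.4 and 25.7%. The families of the repeats were not identified. The excess depended on the library that chose the windows, at 8.14 percentage points with replicate 1 and 0.802 with replicate 2. Short reads from repeats are harder to place, and the part of this in the result was not tested.

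**Figure D4:**
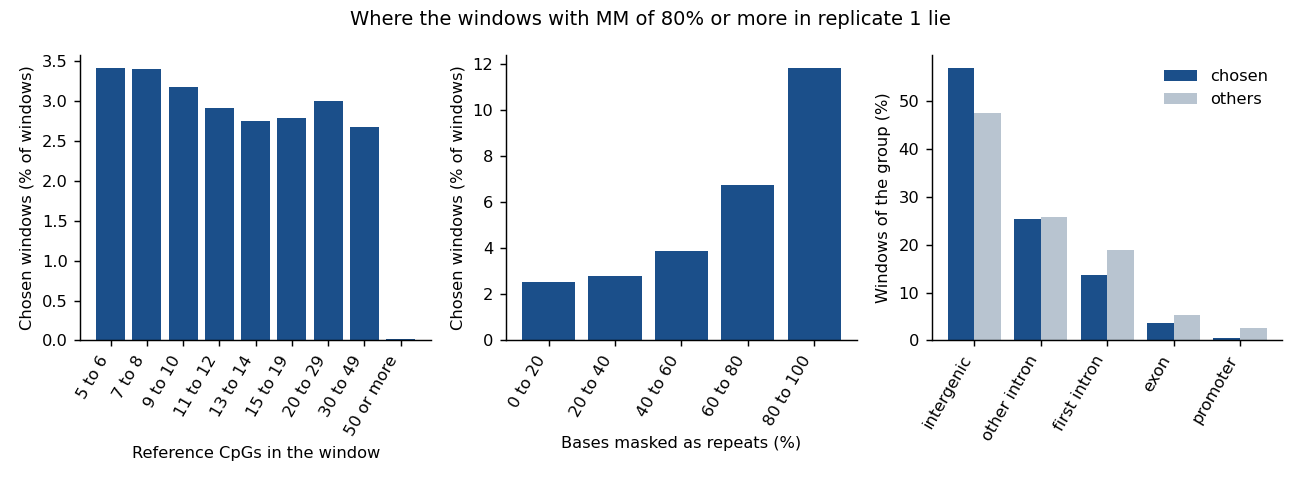
Share of windows that were chosen (%) by the number of reference CpGs and by the percentage of bases masked as repeats, and the annotation of chosen and other windows (% of the group). The share rises from 2.54 to 11.8% with repeat content, falls to 0.0236% at 50 or more CpGs, and the chosen windows are more often intergenic.

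The share of chosen windows differed little over most of the range of CpG density. The chosen windows had a mean of 10.8 reference CpGs and the other windows 11.8, with a GC content of 43.6 and 44.1%. The direction of both turned against the 60 to 80% windows alone, which had 10.4 CpGs and a GC content of 43.2%. The share of chosen windows was 3.41% at 5 to 6 CpGs, 3.0% at 20 to 29 and 2.68% at 30 to 49. By the number of sites covered in replicate 1 it fell more steeply, from 4.44% at 5 sites through 2.26% at 10 to 14 to 0.695% at 20 or more. At 50 or more CpGs 3 of 12705 windows were chosen. These 3, named after their values were seen, were between 98.5 and 100% masked as repeats: an intronic window of Kcnma1 (chromosome 14, 23535000 to 23535999), an intergenic window with Nrg3 as nearest gene (chromosome 14, 40132000 to 40132999), and an intergenic window near Zfp763 (chromosome 17, 33044000 to 33044999). Kcnma1 encodes a calcium-activated potassium channel and Nrg3 a neuregulin. The windows had 81.6, 85.7 and 93.9% MM over 87, 49 and 33 calls in replicate 1, and no site of theirs was covered in replicate 2.

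The levels of the remaining states differed by CpG density. In replicate 2, MC/CM in the chosen windows fell from 15.8% of calls (15.5 to 16.0%) at 5 to 6 reference CpGs to 10.1% (9.40 to 10.8%) at 30 to 49. HM/MH went from 1.68% (1.59 to 1.77%) to 2.26% (1.93 to 2.63%) over the same range, and HC/CH from 1.69% to 2.30% at 15 to 19 CpGs and 2.00% at 30 to 49. In the 60 to 80% windows, HC/CH ran from 2.11 to 4.32% and HM/MH from 1.74 to 3.68% over that range, while MC/CM ran from 17.8 to 11.8%. The difference of these slopes was not tested. In windows masked as repeats over 80 to 100% of their bases, the chosen windows had 12.6% MC/CM and 1.30% HC/CH, against 14.6 and 2.10% in those masked over 0 to 20%. Their MM was 80.5 against 76.9%. The 60 to 80% windows ran the other way for MC/CM, with 16.1 against 15.8%, and the same way for HC/CH, with 1.72 against 2.97%.

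**Figure D5:**
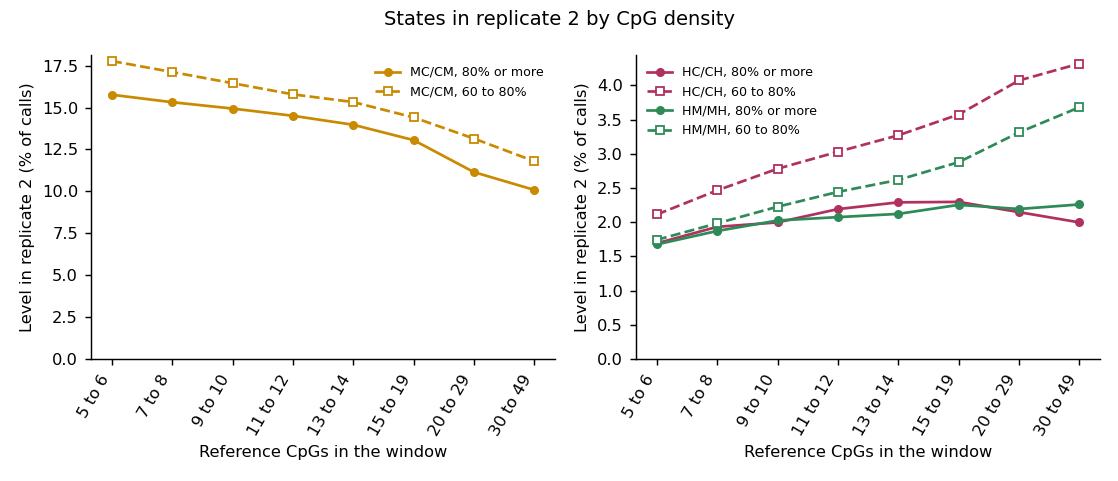
Levels in replicate 2 (% of calls) by the number of reference CpGs in the window, for chosen windows (filled points, solid lines) and windows of 60 to 80% MM in replicate 1 (open squares, dashed lines). MC/CM falls with density in both groups, and HC/CH and HM/MH reach 2.00 and 2.26% in the densest chosen windows against 4.32 and 3.68%.

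Spacing within the windows gave the same order for MC/CM. CpGs with another reference CpG within 20 bp had 12.1% MC/CM in replicate 2, and those with none within 100 bp had 16.9%, lower on 19 of 19 autosomes (adjusted p = 5.8e-06, exact sign-flip permutation test). HM/MH ran the other way, at 2.16 against 1.72% (19 of 19 autosomes, the same adjusted p by permutation). HC/CH was 2.01 against 1.83% (14 of 19 autosomes, adjusted p = 0.00748, exact permutation test), and this difference was -0.0609 points in replicate 1. The comparison rests on 35960 close and 13487 isolated sites.

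MC/CM and HC/CH calls in the chosen windows also differed with the bases next to the CpG. Levels here are as called. Lambda DNA was not split by flanking bases or by spacing, so the part of miscalls that vary with sequence was not tested. With A or T on both sides, MC/CM was 15.8%, and with G or C on both sides 12.7% (higher on 19 of 19 autosomes, adjusted p = 5.8e-06, exact sign-flip permutation test). HC/CH was 2.2 against 1.83% (18 of 19 autosomes, adjusted p = 1.67e-05, exact permutation test). HM/MH, at 1.94 and 2.10%, did not pass (adjusted p = 0.0769, exact permutation test), with a difference of -0.156 points and an SD of 0.332 over the autosomes. Of the 10 contexts of 1 base on either side, with reverse complements joined, TCGA had the highest MC/CM level in replicate 2, 16.5%, and GCGC the lowest, 12.1%. There GCGC also had the lowest HM/MH level, 1.22%, and CCGG the highest, 2.89%. In replicate 1, whose values the rule used, ACGG had more HM/MH (3.25%) than CCGG (3.12%). HC/CH in replicate 2 was highest at ACGT, 2.69%, and lowest at GCGC, 1.27%, but single contexts also ran against the pooled contrast of A/T and G/C: TCGA had 1.64% and ACGA 2.14%, both below the 2.22% of CCGG. In the 60 to 80% windows, again in replicate 2, TCGA and GCGC were the extremes of MC/CM too (18.5 and 13.4%) and CCGG had the highest HM/MH level (3.25%), but its lowest was at TCGA (1.53%) and the highest HC/CH level at ACGG (3.74%).

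SCoTCH-seq also tells which strand of a gene carries the mark. Inside protein-coding genes, mC of a hemimethylated CpG lay on the sense strand in 7.25% of calls in the chosen windows and on the antisense strand in 7.14% (13 of 19 autosomes, adjusted p = 0.154, exact sign-flip permutation test). The hmC of HC/CH was on the sense strand in 1.12% and on the antisense strand in 1.13% (adjusted p = 0.881, permutation test), and that of HM/MH in 1.02 and 1.09% (higher on the antisense strand on 15 of 19 autosomes, adjusted p = 0.0576, permutation test). No strand difference passed the test in replicate 2. The SD of the difference over the autosomes was 0.328 points (MC/CM), 0.180 (HC/CH) and 0.145 (HM/MH).

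The chosen windows were mostly scattered. They formed 35671 runs of adjacent windows, of which 33787 were single windows, and 10.6% of the windows were in runs of 2 or more. After a chosen window, 8.90% of the next windows with 5 or more sites were chosen too, against 2.70% after another window. Windows with a chosen window on each side, 259 in number, had less MC/CM (11.4 against 14.3%), HC/CH (1.38 against 2.29%) and HM/MH (1.30 against 2.11%) in replicate 2 than the 14613 with another window on each side. Each difference ran in 1 direction on 17 or 18 of 19 autosomes (adjusted p of 0.000691, 8.8e-05 and 0.00113, exact sign-flip permutation test). The inner windows carried 4773 calls. In replicate 1, whose MM level chose both kinds of windows, the MC/CM difference was -0.300 points and that of HM/MH 0.401 points, given here as a description.

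MM in replicate 2 was 76.9% in single windows, 78.7% in runs of 2, 81.3% in runs of 3 and 81.9% in runs of 4. The longest run had 8 windows within D10Wsu102e (chromosome 10, 83408000 to 83415999), with 87.5% MM over 954 calls in replicate 1 and 84.5% (76.6 to 90.5%) over 116 calls in replicate 2. Of 3 runs of 6 windows, the first by position, near A030003K21Rik (chromosome 1, 82935000 to 82940999) had 82.6 and 85.6% MM (79.9 to 90.2% in replicate 2). The next, within Desi2 (chromosome 1, 178223000 to 178228999) had 84.5 and 86.2% (81.4 to 90.2% in replicate 2). Desi2 encodes a deSUMOylating isopeptidase. In these 3 runs MM in replicate 2 lay above the 77.2% of the chosen windows as a whole, in the last 2 with an interval that lay above it too.

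Among 7764 protein-coding genes with at least 20 windows of 5 or more sites, the median share of chosen windows was 1.46%, 3398 genes had none and 10 genes had 20% or more. Desi2 had the highest share, 38.2% (13 of 34 windows), followed by D10Wsu102e with 36.3% (33 of 91). Tubgcp2, a component of the gamma-tubulin complex, had 30.8% (8 of 26), and Cmc2, linked to cytochrome c oxidase biogenesis, had 30.4% (7 of 23). Nlrp9c, an NLR-family gene, had 28.6% (8 of 28) and Tmem268, a transmembrane protein gene, 23.8% (5 of 21). Qrsl1, which takes part in mitochondrial glutaminyl-tRNA synthesis, had 20.8% (5 of 24), and Cep57l1, a centrosomal protein gene, had 12 of 60, a share that 2 more genes had. These shares chose the genes. In their chosen windows, MM in replicate 2 was 86.7% of 315 calls in Desi2, 84.8% of 619 in D10Wsu102e, 84.8% of 191 in Tubgcp2 and 84.5% of 238 in Cep57l1. It was 84.1% of 88 calls in Tmem268 and 91.8% of 61 in Qrsl1, but 76.0% of 287 in Cmc2 and 76.0% of 50 in Nlrp9c. Over the whole gene, Desi2 had 77.5% MM and 11.3% MC/CM in replicate 2, D10Wsu102e 76.5 and 11.8%, and Cmc2 62.8 and 13.3%.

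Few chosen windows held a gene start. Of 16832 protein-coding TSSs (the 5' end of each gene record) in windows with 5 or more sites, 77 were in a chosen window, or 0.457%. Of all windows with 5 or more sites, 3.09% were chosen. These windows had between 5 and 43 reference CpGs, with a median of 12, and 16 of them had 20 or more. By CpG number the leading genes were Dpep3, a membrane-bound dipeptidase gene (43 CpGs), Gm11808 (32), Dnajb8, a DnaJ co-chaperone gene (31), and Guca1b, a guanylate cyclase activator of photoreceptors (29). Ubqln5 (29), Gm49394 (28), Actbl2, an actin-like gene (27), Fam71a (25), Gh, growth hormone (23), and Stox2 (23) followed. Their MM levels in replicate 1 were between 80.1% at Dnajb8 and 88.6% at Gm11808. In replicate 2, the window of Actbl2 had 92.6% MM over 54 calls (82.1 to 97.9%), that of Dpep3 88.0% over 25 calls (68.8 to 97.5%) and that of Dnajb8 81.2% over 16. Guca1b was MM in each of 17 calls (80.5 to 100%). Ubqln5, with 77.3% over 128 calls (69.1 to 84.3%), and Gh, with 71.6% over 74 (59.9 to 81.5%), were lower. Stox2 had 60.3% MM over 58 calls (46.6 to 73.0%), with 12.1% HC/CH (4.99 to 23.3%) and as much MC/CM. The windows of Gm11808, Gm49394 and Fam71a had no site in replicate 2.

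Gene lists of known promoter behaviour had no TSS in a chosen window. Among germline genes, which include meiosis genes that DNA methylation is known to silence in somatic cells, this held for 18 of 18 TSSs in windows with 5 or more sites. It also held for 10 of 10 pluripotency genes, 11 of 11 housekeeping genes, 8 of 8 genes of the DNA methylation machinery and 11 of 11 developmental regulators. At a background of 0.457% over all protein-coding TSSs in such windows, counts of 0 in lists of this size are not a result about the lists. The germline TSS window with the most MM in replicate 1 was that of Asz1, at 66.7%. In replicate 2 it had 54.8% over 31 calls, below Tex101 with 65.7% over 35 and Sycp1 with 62.5% over 16. Within gene bodies, 9 of 308 windows of the germline genes were chosen (2.92%), against 2.57% of windows in all protein-coding genes. The shares were 1.67% for pluripotency genes (4 of 239), 1.78% for the methylation machinery (8 of 449) and 0.840% for developmental regulators (2 of 238). Of 90 windows of housekeeping genes 0 were chosen, and whether so few windows depart from 2.57% was not tested. Of the 8 in the methylation machinery, 7 were in Tet3 and 1 in Dnmt1, which encode a hydroxymethylating and the maintenance methylating enzyme. Of the 9 in germline genes, 4 were in Tdrd1, 3 in Mov10l1, and 1 each in Sycp1 and Stag3.

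The windows with the most CpG sites in replicate 2 give the levels that single windows allow. A window with an exonic midpoint in the zinc-finger gene Zfp658 (chromosome 7, 43573000 to 43573999) had 20 sites there, with 87.6% MM (80.9 to 92.6%) and 8.03% MC/CM over 137 calls. The intergenic window nearest to Vmn2r74 (chromosome 7, 86011000 to 86011999) had 19 sites, with 69.6% MM (61.1 to 77.2%), 16.3% MC/CM and 4.44% HM/MH over 135 calls. Both had been near the threshold in replicate 1, at 82.3 and 80.9%. The Ubqln5 window had 4.69% HC/CH and as much HM/MH over 128 calls. An intergenic window with Lemd2 as nearest gene (chromosome 17, 27350000 to 27350999) had 84% MM (76.2 to 90.1%), and the Uggt1 window (chromosome 1, 36192000 to 36192999) had 82.4% (74.3 to 88.7%) with 15.1% MC/CM, over 119 calls each.

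The extremes of hmC among the 349 chosen windows with at least 60 calls in replicate 2 were picked in that replicate, so their levels are a description. HM/MH was highest in an intergenic window with Ctbp2 as nearest gene (10.9% of 64 calls, 4.51 to 21.2%). It was followed by windows in Cdh13, a cadherin gene (10.6%), Zfp423, a zinc-finger gene (10.0%), Tenm4, a teneurin gene (9.52%), and Disc1 (8.96%), all intronic. In replicate 1 the same windows had between 3.03 and 5.26% HM/MH. HC/CH was highest in intronic windows of Lrrc8d, a volume-regulated anion channel subunit, and Rad9b, a DNA damage checkpoint gene, both with 11.3% of 62 calls (4.66 to 21.9%). Windows of Glra1, a glycine receptor subunit (10.5%), Bzw2 (8.33%) and one whose nearest gene was Fgf23 (8.33%) followed. In replicate 1 these had between 1.01 and 3.33% HC/CH, below the levels that picked them.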

How the data were processed

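SCoTCH-seq was run by the authors on genomic DNA of 2 passages of E14 mESCs, with methylated lambda DNA and duplexes of known states added. They trimmed reads with cutadapt 4.6, aligned them to GRCm38 (mm10) with BSBolt, removed duplicates with Picard 3.1.1 and derived the state of each CpG from its pair of reads. The authors deposited, per replicate and CpG site, the count of calls of each state and the percent of the site's depth, after removal of blacklisted regions and of sites with fewer than 5 calls. Neither was corrected by the spike-ins.

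Counts were summed over sites (Python 3.11.15 with pandas 2.3.3 and NumPy 2.4.6), tests used SciPy 1.17.1 and figures Matplotlib 3.10.9. Positions counted from 1, and a window held the sites with the same whole number of kb. Corrected levels solve the 9 linear equations of the study's methods with call rates of 25 duplex sites of the same replicate, with negative solutions set to 0. CpGs, masked repeats and flanking bases came from GRCm38.p6, and genes from GENCODE vM21. The TSS of a gene was the 5' end of its gene record, 1 per gene. Starts of other transcripts did not count as TSSs, for promoters and distances too. Median depth was 10 calls per autosomal site in replicate 1 and 6 in replicate 2, and the exact intervals at 95% cover counting error only. Both samples are of 1 condition, so no samples could be contrasted, and differences were tested over 19 autosomes by an exact sign-flip permutation test, with Benjamini-Hochberg adjustment over 38 tests and a threshold of 0.05. The steps were tested on simulated data.

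The windows, the gene lists and the tests were chosen with earlier results of these data known. Windows and genes were named by rule: the 5 windows with most sites in replicate 2, the 3 longest runs (a tie went to the first by position), the 8 protein-coding genes with the highest share of chosen windows among those with at least 20 eligible windows (a tie went to the gene with more windows), the 10 genes with a TSS in a chosen window by CpG number, the 5 windows with the highest HM/MH and HC/CH among those with at least 60 calls, and the gene lists. Alternatives varied the minimum of sites and calls, the MM threshold, the weighting, the place of the windows, the correction, the promoter width and the replicate. In each alternative the adjustment ran over fewer tests, taking those on states, within windows and on window annotation and properties separately.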

Additional observations from a re-analysis of the deposited data

How the results depend on the processing

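No paired analysis was possible because both samples belong to 1 group. Of 377 recomputed values over 45 results, 322 kept their direction and side of the threshold or stayed within 1.5 times of a count or 1 SD of the replicates' levels. The 322 include settings with rule and values from the same library, where the rule itself fixes higher MM and fewer other calls. Those values are no evidence of stability. The rule, applied in replicate 1, also enters the SD of the replicates, which was 4.07 points for MM and 4.29 for MC/CM. State levels that stayed within this SD are therefore weak evidence of stability. The number of chosen windows was 7862 with at least 10 sites, 120582, 8265 and 1304 at MM thresholds of 75, 85 and 90%, and 15092 with sites of 10 or more calls. CC in the windows was 3.93% with at least 10 sites, 4.95% at a threshold of 75% and 3.88% at 85%. Without one of the replicates, that is with rule and values from the same library, CC was 3.11 to 3.90%, MM 82.9 to 84.7%, MC/CM 8.26 to 8.77%, HC/CH 1.69 to 1.71%, HM/MH 1.65 to 2.92% and HH 0.0512 to 0.278%. With the rule in replicate 2 and values from replicate 1, CC was 8.94%, MM 68.9%, HC/CH 3.56%, HM/MH 4.57% and HH 0.530%, and 2523 of the 37631 windows chosen in replicate 2 had been chosen in replicate 1. Only 5479 windows chosen in replicate 1 had 5 or more sites in replicate 2. Of these 46.0% met the rule there, against 12.8% of all 289515 windows with 5 or more sites in both.

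The MC/CM difference from all other windows was -0.395 points at a threshold of 85%, 0.394 (no longer passing) with sites of 10 or more calls, 0.214 (no longer passing) after correction, and -4.58 to -4.03 without one of the replicates. With sites of 10 or more calls, the differences from the 60 to 80% windows that no longer passed were those of HM/MH (-0.259) and HH (-0.0265), and among the shares of calls other than MM those of HC/CH (-0.817) and HH (-0.0273). That setting keeps fewer sites. With the rule in replicate 2 and values from replicate 1, the HH difference from the 60 to 80% windows no longer passed (-0.00583), its share of the calls other than MM turned to 0.232, and HM/MH and HH against all other windows turned to 0.567 and 0.0441. The HH share was -0.129 to 0.190 without one of the replicates.

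Within the windows at a threshold of 85%, the HC/CH difference by spacing (0.0797) and the MC/CM (-6.88), HC/CH (-1.01) and HM/MH (-2.0) differences of inner windows no longer passed. Read in replicate 1, the HM/MH difference by flanking bases was 0.112, that of HC/CH by spacing -0.0609, and those of inner windows -0.300 for MC/CM and 0.401 for HM/MH. With the rule in replicate 2 and values from replicate 1, the HM/MH strand difference passed (-0.0680), and the inner windows no longer did for MC/CM (-0.521) and HM/MH (-0.398). The share of other introns differed by 1.34 points with at least 10 sites, -3.35 at a threshold of 85%, 6.13 without replicate 1 and -2.36 against the 60 to 80% windows, and GC content by -0.195 (no longer passing) at 85%. Against the 60 to 80% windows, added after the data were seen, reference CpGs differed by 0.350 and GC content by 0.388. The cause of these changes was not tested. At a median of 6 calls per site in replicate 2, single sites and most single windows allow no level of the rarer states.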

Other observations

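A small number of reference CpGs inside the chosen windows were called mostly CC in both libraries, picked after their values were seen. Whether the E14 genome carries a CpG at these positions of the reference was not tested, so CC calls there need not be unmethylated CpGs. In replicate 1, 183 of 290052 sites had CC in at least 80% of calls, and 35 of these were covered in replicate 2. Of the 35, 31 again had CC in at least 80% of calls there, and CC made up 92.4% of their 198 calls. Among all 85421 sites covered in both replicates, 56 sites had that level of CC in replicate 2.

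Sites picked in replicate 1 for other states were met again less. The 38 sites with MC in at least 50% of calls had 12.4% MC and 3.72% CM in replicate 2, against 7.25 and 7.16% over all sites covered in both. The 44 sites with CM in at least 50% of calls had 8.46% CM and 10.8% MC. The 296 sites with HM or MH in at least 30% of calls had 2.02% HM/MH in replicate 2, against 1.98% over all such sites, and the 156 sites with HC or CH in at least 30% had 3.96% HC/CH, against 1.99%. The numbers of calls behind these values were 242, 260, 1783 and 959, and no test was made.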
